A study of Mus musculus with 12 samples.

Results

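Wildtype embryonic mouse retina pools fell into a set with much and a set with little RNA of Cacna1i, the gene of a low-voltage-activated (T-type) calcium channel. A pool was placed in the high set above 20 CPM (a gene's reads per 1000000 counted reads of its library) and in the low set under 20 CPM. The high set held 3 of the 6 wildtype libraries (male 4, male 6 and female 6), the low set held the other 3 (male 5, female 4 and female 5), and the table held 12 libraries in all. The pools were chosen by the measured level of Cacna1i, so its difference between them is a description, and so is every other difference between the sets, for which no p-value is given.

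Each library came from a pool of 12 retinas of 1 sex at stage E15.5 of embryonic development, on the C57BL/6 strain, from more than 1 litter per the series' design text. Besides the 6 wildtype pools there were 6 mutant pools (3 male, 3 female) of genotype Six3-Cre:Tbr2f/f, which carry floxed Tbr2 alleles and the Six3-Cre transgene. The tables carry Tbr2 as Eomes, its gene symbol. The labels give the 6 control pools as wild type and do not say whether any embryo in them carried Six3-Cre, and Cre reads were not analysed here. As pools were sequenced and not single embryos, p-values rest on how pools of several embryos vary.

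Cacna1i encodes the pore-forming subunit of Cav3.3, a channel that opens at small depolarisations and shapes burst firing in neurons. Six3 is a homeobox transcription factor of the eye field and the retinal progenitors, and Six3-Cre uses its regulatory sequence to express Cre recombinase in the developing retina. Eomes is a T-box transcription factor that a subset of retinal ganglion cells needs, among them the melanopsin-expressing, intrinsically photosensitive ones.

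Sequences of 2 loci are given for reference, the start of Cacna1i and the region of the RefSeq start of Six3. A link of these sequences to the levels was not tested. In the Six3 region an RNA that was higher in the high set is annotated. The annotations differ there. The deposited gene positions, which are used here, have Six3 at chr17:85613608-85629302 on the plus strand. By these positions the RNA lies within the span of Six3 and starts 7.39 kb from its start. The promoter windows were taken from the RefSeq promoter table (GRCm38.p6) and run over the 250 bases before the start site. The window of Cacna1i lies at chr15:80286988-80287237 on the plus strand and that of Six3 at chr17:85620584-85620833 on the plus strand. Capitals mark the 44 bases of the Six3 window that also lie in the first exon of RP24-68F22.7, an antisense RNA gene on the minus strand. The third sequence holds the first 150 bases of the second exon of RP24-68F22.7, at chr17:85619821-85619970 on the minus strand, read from GRCm38.
Cacna1i promoter: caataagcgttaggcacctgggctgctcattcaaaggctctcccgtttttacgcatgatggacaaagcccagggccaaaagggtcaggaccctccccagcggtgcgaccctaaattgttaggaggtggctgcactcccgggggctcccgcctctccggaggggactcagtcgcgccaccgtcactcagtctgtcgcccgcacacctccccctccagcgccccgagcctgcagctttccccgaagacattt
Six3 promoter: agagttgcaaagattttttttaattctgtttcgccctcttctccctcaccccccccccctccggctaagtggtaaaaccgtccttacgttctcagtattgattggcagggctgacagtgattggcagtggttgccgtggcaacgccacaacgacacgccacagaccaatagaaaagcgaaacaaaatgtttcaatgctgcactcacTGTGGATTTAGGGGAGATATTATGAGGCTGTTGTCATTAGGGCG
RP24-68F22.7 second exon, first bases: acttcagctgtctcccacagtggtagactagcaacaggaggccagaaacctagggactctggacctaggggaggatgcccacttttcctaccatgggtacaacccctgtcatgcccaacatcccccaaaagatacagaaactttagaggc

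Short motifs were counted on both strands of these 250-base windows. TAAT, the core that many homeodomain proteins bind, occurred 3 times in the Six3 window and 0 times in that of Cacna1i, and 54.9% of 32851 promoters of the same length held it. CCAAT, the box bound by NF-Y, occurred 3 times at Six3 and 0 times at Cacna1i, against 33.8% of promoters with at least 1. GGGCGG, an Sp1-type GC box, was in neither window and in 32.7% of promoters. A match describes the letters of the window only.

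Cacna1i (ENSMUSG00000022416, chr15:80287238-80398279 in mm10, plus strand, protein coding) was at 29.0 CPM in wildtype male 4, 45.2 CPM in wildtype male 6 and 102 CPM in wildtype female 6. In the low set it was at 6.56 CPM in male 5, 6.91 CPM in female 4 and 6.96 CPM in female 5. The high pools were thus spread widely and the low pools lay close together: 58.7 ± 38.3 CPM against 6.81 ± 0.216 CPM (SD, n = 3 each), an 8.62-fold ratio of the means (5.44-fold without wildtype female 6). The pools nearest the limit were male 4 on the inside, at 29.0 CPM, and female 5 on the outside, at 6.96 CPM. Raw reads numbered 557, 1077 and 2040 in the high set and 168, 187 and 137 in the low set. Both sets held both sexes, with 2 males and 1 female in the high set and 1 male and 2 females in the low set.

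The mutant pools all had more. Cacna1i was at 102, 158 and 123 CPM in mutant males 4, 5 and 6 and at 151, 154 and 179 CPM in mutant females 4, 5 and 6. The lowest mutant pool, at 101.93 CPM, was just above the highest wildtype pool, at 101.89 CPM. Set on a scale from the mean of the low set (0%) to the mean of the mutant pools (100%), wildtype male 4 stood at 16.1%, male 6 at 27.9% and female 6 at 69.1%, and single mutant pools ran from 69.1% to 125%. The 3 high pools therefore lay at 3 separate points between the low set and the mutants rather than at a common level.

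**Figure D1:**
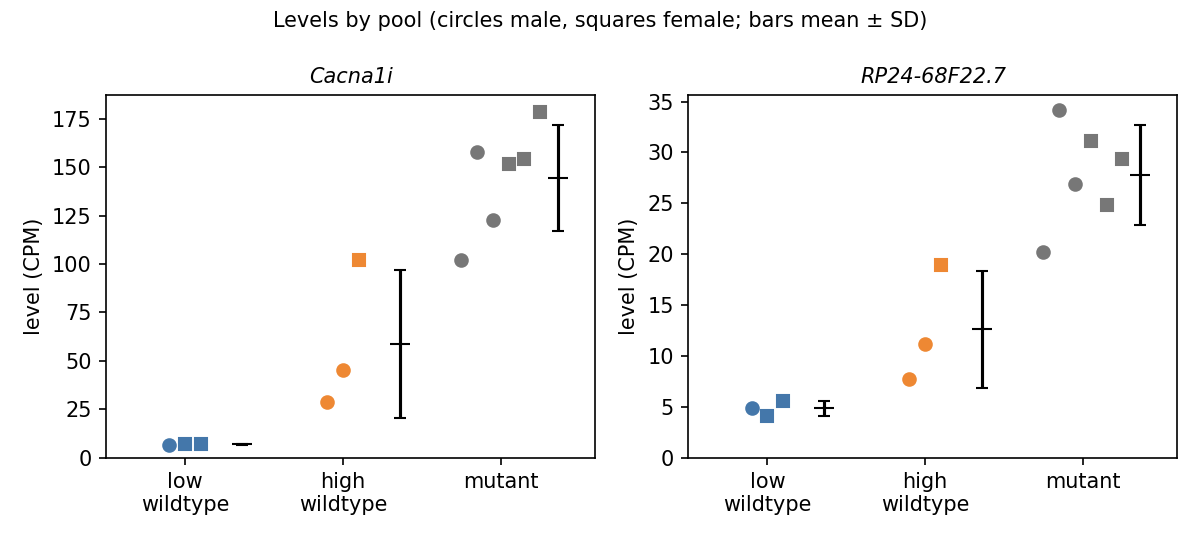
Level of Cacna1i (left) and of RP24-68F22.7 (right) in CPM on linear axes, 1 point per pool, for low wildtype, high wildtype and mutant pools, with circles for male and squares for female pools and bars for mean ± SD. The low pools lie between 6.56 and 6.96 CPM for Cacna1i, the high pools are spread from 29.0 to 102 CPM, and each mutant pool lies above the wildtype pools for both genes.

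On a scale per gene length, Cacna1i also changed its place among the T-type channel genes. In the deposited FPKM values it averaged 0.696 ± 0.0221 in the low set (SD, n = 3), below Cacna1g (Cav3.1) at 1.78 ± 0.155 and Cacna1h (Cav3.2) at 7.80 ± 0.995. In the high set Cacna1i averaged 6.00 ± 3.91 FPKM, between Cacna1g at 2.07 ± 0.211 and Cacna1h at 8.55 ± 0.196. In the mutant pools Cacna1i averaged 14.8 ± 2.81 FPKM (SD, n = 6), above Cacna1g at 2.32 ± 0.343 and Cacna1h at 8.49 ± 1.56. The high and low pools overlapped for the other 2 T-type genes, while the mean of Cacna1i was the lowest of the 3 in the low set, the middle one in the high set and the highest in the mutants.

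Among 21 other voltage-gated calcium channel subunit genes at 1 CPM or more, 0 were separated between the sets. Here and in what follows, separated means that all 3 high pools lay above, or all below, all 3 low pools, and that the set means differed at least 1.5-fold. Of all 13720 other genes with a mean of at least 1 CPM over the wildtype pools, 110 were separated (0.802%), 57 higher in the high set (0.415%) and 53 lower (0.386%). With TMM-scaled library sizes the split was 43 higher and 61 lower. The log2 ratio of high to low of the subunit genes had a median of 0.08, against 0.02 over all genes, and ran from -0.35 to 0.36.

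An antisense RNA at the Six3 locus was among the separated genes. RP24-68F22.7 (ENSMUSG00000099635, named Gm28528 in GENCODE M21, chr17:85619326-85621001 in mm10, minus strand) has 2 exons, of 212 and 645 bases, with no known function given in the files. It was singled out after its values were seen, since clone-named genes stand outside the rule for named genes. Its level was 7.75 CPM in wildtype male 4, 11.2 CPM in male 6 and 19.0 CPM in female 6, and 4.84, 4.14 and 5.54 CPM in the low pools male 5, female 4 and female 5. The sets did not overlap, and the order within the high set, male 4, male 6, female 6, was the order of Cacna1i, as it was for 5 of the 57 separated genes higher in the high set (also Mtnr1a, Hist1h3c, 1700040D17Rik and A930024N18Rik). The order within the low set was not that of Cacna1i. With 3 pools few orders are possible, and the share of all genes with this order was not counted. The shared order therefore cannot be told from a background. Means were 12.6 ± 5.76 CPM and 4.84 ± 0.700 CPM (SD, n = 3 each), 2.61-fold apart, from 149, 266 and 380 reads against 124, 112 and 109.

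In the mutants RP24-68F22.7 stood at 20.2, 34.2 and 26.9 CPM in males 4, 5 and 6 and at 31.1, 24.8 and 29.4 CPM in females 4, 5 and 6. Each of the 6 mutant pools exceeded each of the 6 wildtype pools. Of the 57 separated genes higher in the high set, RP24-68F22.7 was the 1 gene for which all mutant pools lay above all high pools. For 4 of the 57 (Myrip, Gp1ba, Gm6981 and RP24-68F22.7) all mutant pools lay above all low pools. The share of all measured genes with either pattern was not counted. Whether these counts, or the place of RP24-68F22.7 among the 57, exceed a background therefore cannot be told.

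On the scale from the low mean to the mutant mean, RP24-68F22.7 placed wildtype male 4 at 12.7%, male 6 at 27.6% and female 6 at 61.7%. The same pools stood at 16.1%, 27.9% and 69.1% by Cacna1i. With each pool set against the mutant mean of its own sex, male 4, male 6 and female 6 stood at 13.1%, 28.4% and 59.9% by RP24-68F22.7 and at 18.3%, 31.8% and 61.5% by Cacna1i. Both scales restate the levels in CPM, so the shared order of the 3 pools is the one given above and adds nothing to it. Over the 6 mutant pools alone, which the rule did not use, the log2 levels of the 2 genes had a Pearson r of 0.76 (n = 6 pools, a description), rank 229 of 13680 genes. The most alike genes over those pools were Fam21 (r = 0.995), Baz2a, Scnm1, 2010001A14Rik and Pcnt (r = 0.97), and none of these 5 was separated in the wildtype pools.

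**Figure D2:**
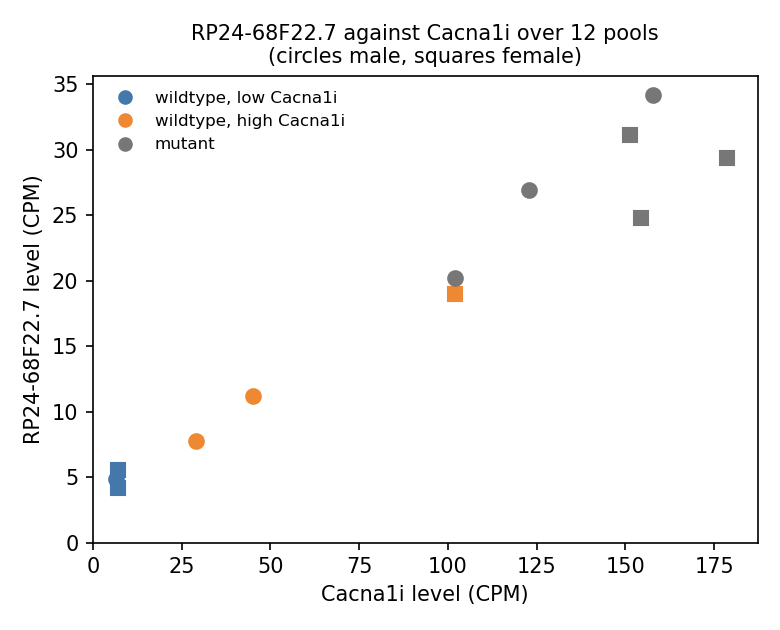
Level of RP24-68F22.7 (vertical axis) against Cacna1i (horizontal axis), both in CPM on linear axes, 1 point per pool, with low wildtype, high wildtype and mutant pools in separate colours, circles for male and squares for female pools. The 3 high wildtype pools sit apart from each other between the low pools and the mutants, and wildtype female 6 lies beside mutant male 4 at 102 CPM of Cacna1i.

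The other genes of that locus gave a different picture. Six3 itself was at 402, 423 and 414 CPM in the high pools and at 416, 382 and 441 CPM in the low pools, with means of 413 ± 10.3 and 413 ± 29.4 CPM. Six3os1, a long noncoding RNA transcribed from the opposite strand beside Six3, averaged 847 ± 9.24 CPM against 812 ± 54.5 CPM. Six2, the neighbouring family member with a role in kidney progenitors, averaged 4.42 ± 0.861 CPM against 4.29 ± 0.966 CPM. For these 3 genes the sets overlapped. Of the 12 genes within 1 Mb of Six3 at 1 CPM or more, RP24-68F22.7 was the 1 separated, and the other 11 had log2 ratios from -0.04 to 0.49 with overlapping sets. This window was added after the data had been seen. The strand setting of the counting is not given in the sources used here, so reads of RP24-68F22.7, Six3os1 and Six3 cannot be told apart where they overlap.

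The genes around Cacna1i on chromosome 15 had log2 ratios from -0.22 to 0.19 between the sets, against 3.11 for Cacna1i itself. The table lists 42 other genes within 1 Mb, 33 of them at 1 CPM or more and 9 below, and 0 of the 33 were separated. At the 0.802% separated over all genes, 33 genes would mostly hold 0. The nearest measured upstream genes start 22.9, 32.1 and 53.2 kb from the start of Cacna1i. Rps19bp1, which encodes a binding partner of a ribosomal protein, was at 26.7, 28.2 and 23.2 CPM in the high pools (in the order male 4, male 6, female 6) and at 24.6, 25.2 and 26.4 CPM in the low pools (male 5, female 4, female 5). Atf4, a transcription factor of the integrated stress response, was at 129, 146 and 131 CPM against 118, 127 and 151 CPM. The sets overlapped for both genes and also for Mief1, a mitochondrial fission factor, with means of 75.1 ± 2.09 and 74.4 ± 1.21 CPM.

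Downstream, Tnrc6b, a component of microRNA silencing complexes, averaged 144 ± 14.5 CPM in the high set and 147 ± 21.5 CPM in the low set. Fam83f averaged 4.2 ± 1.95 CPM and 4.71 ± 0.922 CPM. Over the 33 genes the log2 ratios ran from -0.22 (Dmc1, a meiotic recombinase) to 0.19 (Fam227a), with a median of 0.05. Maff, Fam227a and Sun2 had sets without overlap, all higher in the high set, with log2 ratios of 0.14, 0.19 and 0.16. That is 9.09% of the 33 genes, against 7.86% of all genes whose sets did not overlap at any fold (5.12% higher and 2.74% lower in the high set). In the mutant against wildtype comparison described further on, the 33 genes had log2 changes from -0.23 to 0.12, and 0 of them passed the adjusted threshold of 0.05 in the quasi-likelihood test of edgeR (Benjamini-Hochberg adjustment), 1 had an unadjusted p under 0.05, and 0 passed in DESeq2.

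**Figure D3:**
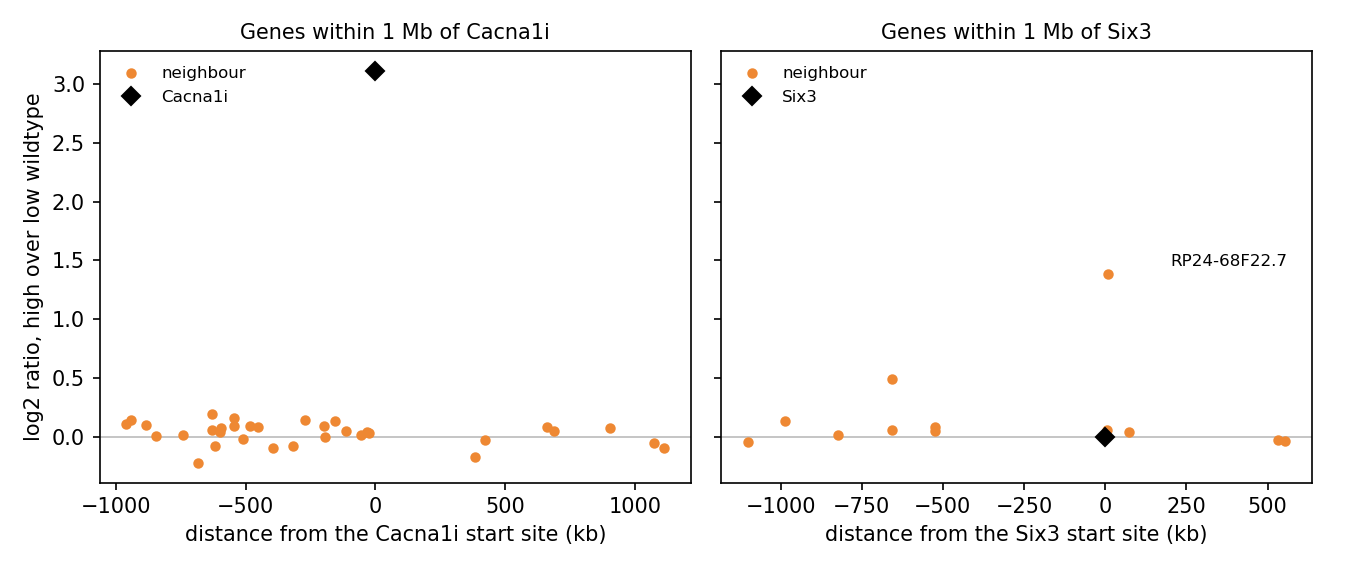
Log2 ratio of the mean CPM of the high to the low wildtype pools (vertical axis) against the distance of each gene's start site from that of Cacna1i (left) or Six3 (right) in kb, for genes at 1 CPM or more, with the central gene as a black diamond. Beside Cacna1i the neighbours lie between -0.22 and 0.19, and beside Six3 RP24-68F22.7 at 1.38 stands above 11 other neighbours that lie between -0.04 and 0.49, where Six3 is close to 0.

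Eomes, the targeted gene of the mutants, had similar levels in both wildtype sets. It was at 56.8, 65.5 and 64.6 CPM in the high pools and at 76.1, 53.8 and 53.4 CPM in the low pools, with means of 62.3 ± 4.78 and 61.1 ± 13.0 CPM. The sets overlapped, and the mutant pools ran from 9.62 to 27.4 CPM, below each wildtype pool. Wildtype female 6, with Cacna1i nearly at the level of mutant male 4, had 64.6 CPM of Eomes, whereas mutant male 4 had 24.9 CPM.

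Most genes linked to the intrinsically photosensitive ganglion cells also overlapped between the sets. Opn4, which encodes melanopsin, averaged 1.72 ± 0.110 CPM in the high set and 1.5 ± 0.363 CPM in the low set. Tbx20, a T-box factor of these cells, averaged 12.3 ± 2.13 and 13.1 ± 3.15 CPM. Igf1, a growth factor gene, averaged 28.6 ± 7.45 and 27.4 ± 12.2 CPM. Irx1, a homeobox factor, was at 10.1, 10.6 and 9.59 CPM in the high pools and at 9.96, 5.32 and 8.23 CPM in the low pools, so the sets overlapped here too. Of the 14 genes on this list at 1 CPM or more, 0 were separated (0.802% over all genes), with a median log2 ratio of 0.07. The sets did not overlap for 1 of the 14, against 7.86% of all genes.

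The labelled comparison of all mutant with all wildtype pools, which does not use the sets, called 4 of 15467 genes (0.0259%) at an adjusted p under 0.05 in edgeR's quasi-likelihood test with sex as a term. All 4 were lower in the mutants. DESeq2 called 15 genes, and edgeR called 1 with the replicate number as a block (Eomes) and 1 to 5 with 1 pool left out. Of 17 alternatives, the call was lost for Trhde under 8, for Synm under 13 and for Wnt4 under 13. Eomes fell by 1.76 on the log2 scale (SE 0.15, adjusted p = 0.000484). Trhde, the gene of a peptidase that cleaves the hormone TRH, fell by 1.10 (SE 0.14, adjusted p = 0.0142), Synm, an intermediate filament gene, by 0.63 (SE 0.09, adjusted p = 0.0491), and Wnt4, a secreted signalling protein gene, by 3.34 (SE 0.47, adjusted p = 0.0361). In that fit Cacna1i had a log2 change of 2.16 (SE 0.60, unadjusted p = 0.00312, adjusted p = 0.918) and RP24-68F22.7 one of 1.67 (SE 0.32, adjusted p = 0.223), and neither passed, although each mutant pool lay above each wildtype pool for both genes.

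None of the 4 called genes was separated between the wildtype sets. Trhde averaged 11.9 ± 1.04 CPM in the high set, 12.8 ± 2.48 CPM in the low set and 5.81 ± 1.16 CPM in the mutants (SD, n = 6). Synm averaged 72.9 ± 4.77, 73.8 ± 14.0 and 47.6 ± 9.04 CPM. Wnt4, at low counts, averaged 0.940 ± 0.300, 0.907 ± 0.184 and 0.0940 ± 0.117 CPM. For each of these genes the high and low wildtype pools overlapped, and each mutant pool lay below each wildtype pool.

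**Figure D4:**
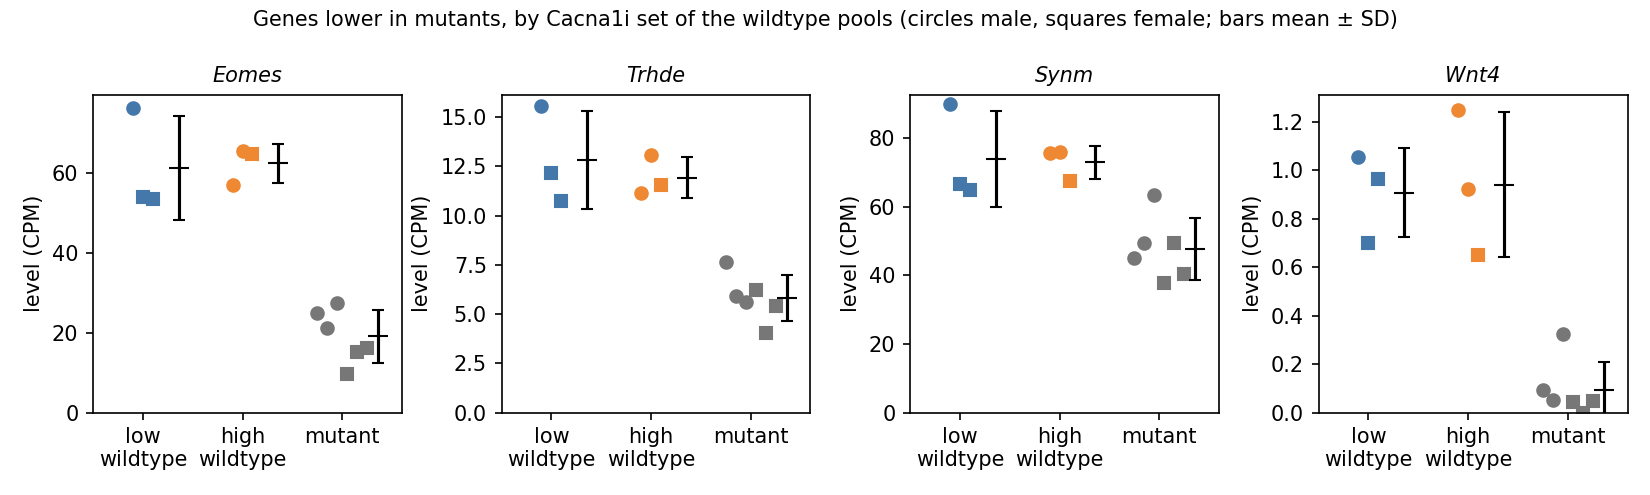
Level in CPM (linear axes from 0) of Eomes, Trhde, Synm and Wnt4, 1 point per pool, for low wildtype, high wildtype and mutant pools, with circles for male and squares for female pools and bars for mean ± SD. The high and low wildtype pools overlap in each panel, and the mutant pools lie below both (Eomes from 9.62 to 27.4 CPM).

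The same fit was repeated with 1 wildtype set at a time. Since pools were then left out by their Cacna1i level, the refits show how the values move and are no separate test of Cacna1i or of RNAs that follow it. Against the low set, 3 of 16334 genes (0.0184%) passed edgeR's quasi-likelihood test, 2 higher (0.0122%) and 1 lower (0.00612%) in the mutants, namely Cacna1i (log2 4.42, SE 0.16, adjusted p = 1.65e-06), RP24-68F22.7 (log2 2.51, SE 0.19, adjusted p = 0.000788) and Eomes (log2 -1.87, SE 0.15, adjusted p = 0.00117). Against the high set, 0 of 16366 genes passed in edgeR (259 at an unadjusted p under 0.05, against 243 with the low set and 451 with all pools). Cacna1i then had a log2 change of 1.31 (SE 0.25, adjusted p = 0.794) and RP24-68F22.7 one of 1.13 (SE 0.23, adjusted p = 1.0 after rounding).

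Eomes kept its size against the high set, at -1.69 on the log2 scale (SE 0.20), with an adjusted p of 0.0905 in edgeR that lay in a range from 2.53e-26 to 0.0905 over 17 alternatives. Trhde had log2 changes of -1.0 against the high set (adjusted p = 0.794) and -1.21 against the low set (adjusted p = 0.137), with 1.10e-10 to 0.794 over its 17 alternatives. Synm had -0.57 and -0.70 (adjusted p = 1.0 after rounding and 0.590), and Wnt4 -3.20 and -3.59 (adjusted p = 1.0 after rounding and 0.687). The changes of these 4 genes stood near each other in the 2 refits, while those of Cacna1i and RP24-68F22.7 were larger against the low set, where their log2 ratios between the wildtype sets were 3.11 and 1.38. The 2 refits share the 6 mutant pools, and the difference between them was not tested.

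Over 17 alternatives, the adjusted p of RP24-68F22.7 ran from 0.000788 with the low set alone to 1.0 after rounding with the high set alone, both in edgeR. Both ends come from the refits with pools left out by their Cacna1i level, which are no separate test of RP24-68F22.7. With all 12 pools edgeR gave 0.223 in the main fit, 0.166 without the filter on low counts and 0.192 with the replicate block. DESeq2 gave a log2 change of 1.68 with an adjusted p of 0.00915, and edgeR without wildtype female 6, the pool highest in Cacna1i, gave 2.10 with an adjusted p of 0.00691. The authors' deposited table of both sexes gave RP24-68F22.7 a log2 fold change of 0.34 and an adjusted p of 0.0120. Cacna1i had 0.14 and 0.951 there. From the same counts edgeR gave log2 changes of 1.67 and 2.16. The scale of the deposited changes was not examined, so their sizes cannot be compared with these. In the authors' deposited table of males RP24-68F22.7 had an adjusted p of 5.75e-05, and in that of females 1.0 after rounding. The call of RP24-68F22.7 as higher in the mutants thus depended on the tool and on which wildtype pools were present.

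Lens genes were lower in the high set, most of them by more than the ratios of Cacna1i and RP24-68F22.7. Of 20 listed lens genes 15 were at 1 CPM or more, all 15 had negative log2 ratios and 14 were separated, with a median of -4.22 against 0.02 over all genes. Their summed level was 61.2, 11 and 11.7 CPM in the high pools and 909, 246 and 188 CPM in the low pools. Cryaa, the alpha-A crystallin chaperone of lens fibres, was at 25.1, 2.27 and 1.70 CPM in the high pools and at 355, 116 and 82.6 CPM in the low pools. Foxe3, a transcription factor of the lens epithelium, had 0 reads in each of the high pools and 5.43, 4.69 and 4.42 CPM in the low pools, at least 102-fold lower with 3 counts over the high set as the floor. The 2 sets did not overlap for either gene.

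Lens genes also led the separated genes that were lower in the high set. The 10 with the largest ratio were Foxe3, Gja3 (a lens connexin) and the crystallins Crygb, Crygd, Crygc, Cryba2, Crygf, Cryaa, Cryba1 and Crybb3. Of the 53 lower genes 14 were on the lens list and 39 were not. Among the latter was Capn3, a calpain also known in lens, at 4.47, 3.32 and 2.6 CPM in the high pools and 36.8, 10.1 and 10.5 CPM in the low pools. Cdh1, the epithelial cadherin on the surface ectoderm list, averaged 0.322 ± 0.191 against 2.36 ± 0.400 CPM. It was the 1 separated gene of the 4 on that list at 1 CPM or more, of which 2 had positive and 2 negative log2 ratios, with a median of -0.07. In bulk RNA, fewer cells of a type and less RNA per cell cannot be told apart.

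Lens RNA did not follow Cacna1i among the mutant pools. The summed lens level was 606, 1065 and 6.48 CPM in mutant males 4, 5 and 6 and 15.1, 2202 and 12.7 CPM in mutant females 4, 5 and 6. The 3 pools at or under 15.1 CPM had Cacna1i at 123, 151 and 179 CPM, and the 3 pools at or above 606 CPM had it at 102, 158 and 154 CPM. Both lens-poor and lens-rich mutant pools thus had high Cacna1i, and no mutant pool was low in it. In the wildtype pools, lens RNA and Cacna1i cannot be told apart as the basis of a difference between the sets, and its part in the other separated genes was not tested.

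The 57 genes higher in the high set were mostly at low level. At a mean of 5 CPM or more only 4 of them were left, RP24-68F22.7, Gm10557, Cdh10 and Hba-a2, and at 2-fold or more 5, RP24-68F22.7, C130046K22Rik, 2010107G12Rik, Cpne4 and Hist1h4c. Cdh10, a neuronal cadherin, was at 7.23, 5.29 and 6.34 CPM in the high pools and at 4.45, 3.77 and 4.32 CPM in the low pools. The mutant pools, at 2.0 to 4.81 CPM, all lay below the high pools, so Cdh10 was not higher where Cacna1i was highest.

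The 10 largest named ratios among the higher genes included Cpne4, Hist1h4c, Ccdc33, Gna14, Aipl1, Mtnr1a, Kcnh5, Nmnat3 and S100a13. Cpne4, a calcium-dependent membrane-binding copine, was at 1.72, 1.30 and 2.40 CPM against 1.09, 0.850 and 0.661 CPM, 2.08-fold apart. Kcnh5, a voltage-gated potassium channel gene, was at 4.0, 3.11 and 4.74 CPM against 2.85, 1.88 and 2.03 CPM, 1.75-fold apart. Neither followed Cacna1i into the mutants, where Cpne4 ran from 0.399 to 1.10 CPM and Kcnh5 from 1.08 to 3.0 CPM. Of the 57 higher genes, the mutant mean was at or above the mean of the high set for 4, between the set means for 43 and at or below that of the low set for 10. For the 53 lower genes it was at or past the high mean for 4, between for 24 and at or past the low mean for 25. The genes were picked for a gap between the wildtype sets, so other pools would often lie between. These counts therefore do not show which genes follow Cacna1i.

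**Figure D5:**
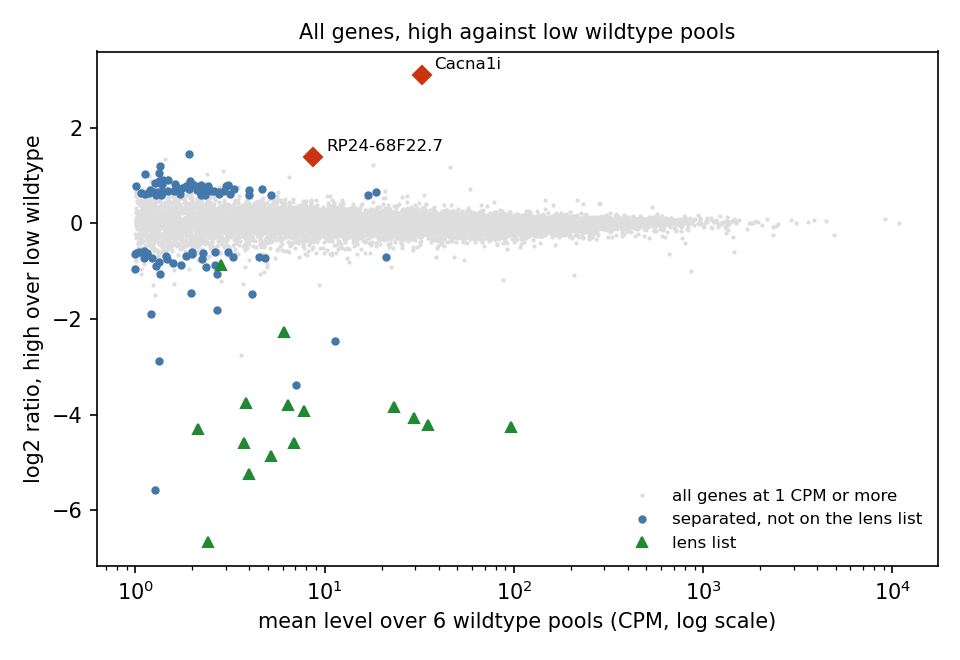
Log2 ratio of the mean CPM of the high to the low wildtype pools (vertical axis) against the mean level over the 6 wildtype pools in CPM (log axis), for genes at 1 CPM or more, with separated genes in blue, lens list genes as green triangles and Cacna1i and RP24-68F22.7 as red diamonds. Foxe3, with 0 reads in the high pools, is drawn at its bound of -6.67. The lens genes lie far below 0, and the separated genes above 0 are mostly at a few CPM.

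Most lists of retinal cell types held no separated gene. None of the 13 eye field genes, 20 ganglion cell genes, 18 progenitor genes, 15 neurogenic precursor genes, 8 horizontal cell genes, 9 photoreceptor precursor genes, 20 proliferation genes or 16 p53 target and DNA damage genes at 1 CPM or more was separated, with list medians from -0.04 to 0.11. At the 0.802% separated over all genes, a list of this size would mostly hold 0. Sets without overlap were found for 2 of the 20 ganglion cell genes (Nefl and Pou4f2, both lower), against 2.74% of all genes. They were also found for 2 precursor genes (Hes6 and Insm1), 1 progenitor gene (Hes5) and 1 p53 list gene (Cdkn1a), all higher, against 5.12%. The remaining lists named above had none. Of 14 genes on the amacrine list 11 had positive log2 ratios, with a median of 0.17. Of these 14, 3 had sets without overlap, all higher in the high set (Tfap2c, Lhx9 and Isl2), against 5.12% of all genes. Isl2 is known as a ganglion cell factor, so the 3 are not all amacrine genes. The 1 separated gene of the 14, against 0.415% of all genes, was Tfap2c, a transcription factor of amacrine cells. It was at 5.25, 6.38 and 5.84 CPM in the high pools and at 3.75, 3.32 and 3.56 CPM in the low pools. Its mutant pools ran from 2.10 to 4.92 CPM. Of 8 blood genes 1 was separated, the alpha globin Hba-a2 (22.9 ± 2.91 against 14.5 ± 4.03 CPM), whose near-identical copy makes its count uncertain. None of the 9 pigment epithelium, 13 vessel and mesenchyme, 10 microglia, 12 ciliary margin and optic stalk, 4 interferon, 7 immediate early or 14 hypoxia and glycolysis genes was separated, with list medians from -0.05 to 0.16. Sets did not overlap for 2 higher and 1 lower of the 10 microglia genes. They did not overlap for 1 of the 12 ciliary margin and optic stalk genes, which was higher. By chromosome, the separated share ran from 0.204% on X to 1.48% on chromosome 3. It was 1.15% (6 of 521 genes) on chromosome 15 and 1.21% (8 of 659) on chromosome 17.

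Several measures of library state differed between pools. Totals ran from 18514607 to 27072825 reads over the 12 libraries, with 16903 to 19242 genes that had a read. The mitochondrial transcript mt-Nd6 was at 21.3, 9.70 and 373 CPM in the high pools and at 419, 381 and 48.4 CPM in the low pools, and 10 of 11 mitochondrial genes had negative log2 ratios, with a median of -0.42 and 0 separated. The sets overlapped for mt-Nd6. The unequal split of the sexes showed in Xist, the X-inactivation RNA, which was at 1729 CPM in wildtype female 6 and at 1899 and 1531 CPM in wildtype females 4 and 5. The part of sex and mitochondrial RNA in the separated genes was not tested.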

How the data were processed

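Bulk RNA of 12 pools was analysed. Per the submitters' processing notes, CASAVA, STAR 2.5, HTSeq 0.6.1 and DESeq2 were used with mm10. Not given in the sources used here are the strand setting and the annotation release. The authors deposited raw read counts per gene and library in tables of both sexes, males and females. The deposited FPKM values, so named per the file headers, served only for levels between genes, and the deposited normalised signal entered no result. The authors' deposited log2 fold changes and p-values, from their comparison of mutant and wildtype, are quoted only by name.

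CPM was the deposited count over the library total of 19954 listed genes, without further scaling. Counts of a library were the same in each table, and 0 library pairs held identical values. Library totals set the precision, and values cover counting error and the spread of pools only. Mutant and wildtype were compared with edgeR 4.0.16 in R 4.3.3 (TMM, filterByExpr on the 4 groups, sex and genotype as terms, two-sided quasi-likelihood test, Benjamini-Hochberg adjustment, threshold 0.05). DESeq2 1.42.0, a replicate block, other filters and left-out pools were alternatives. Standard errors restate the test's F statistic. The fit was tested on simulated counts. No test was made between the high and low sets, which come from measured levels.

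Separated genes needed a mean of at least 1 CPM over the wildtype pools, 1.5-fold set means and no overlap. Named genes were Cacna1i, Eomes, genes within 1 Mb of Cacna1i, the 10 largest separated genes per direction without predicted, Riken or clone-named genes and pseudogenes, separated list members, called genes, mt-Nd6, Cryaa, Hbb-y and Xist, and the 5 genes most like Cacna1i over the mutant pools (log2 of CPM plus 0.5). Others, RP24-68F22.7 and the Six3 window among them, were picked with their values in view. The pools, lists and rules were chosen with earlier results of these data known. Some genes that the rule names are not reported here. Gene positions were those deposited with the counts. The exons of RP24-68F22.7 came from GENCODE M21, where that gene had the same position.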

Additional observations from a re-analysis of the deposited data

Results flagged for a closer look

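For 3 of 22 groups of 6 pools checked for the results named here, 1 pool stood far from the rest of its group, and chance alone marks about 1 in 20 groups. Six3 was at 648 CPM in mutant male 6, where the other mutant pools ran from 393 to 445 CPM. Wnt4 was at 0.324 CPM in the same pool, against 0 to 0.0953 CPM in the other mutants. Cryaa was at 355 CPM in wildtype male 5, a low pool, against 1.70 to 116 CPM in the other wildtype pools. Mutant male 6 also had the fewest reads (18514607) and the fewest genes with a read (16903) of the 12 libraries.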

How the results depend on the processing

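Against 110 separated genes, a lower minimum fold gave 300 and a minimum of 2-fold 28, no minimum level 538 and a minimum of 5 CPM 16, males alone 957 and females alone 598. Leaving out 1 wildtype pool gave 159 to 452 (452 without female 6), where fewer pools make it easier not to overlap. Near Cacna1i, 0 separated genes became 1 within 2 Mb (Baiap2l2) and 0 to 1 with a pool left out (Fam83f without male 4). Near Six3, 1 became 2 with no minimum level (Abcg5 added) and 1 to 2 with a pool left out (1110020A21Rik added without male 5 or female 6). The 8.62-fold ratio of Cacna1i ran from 5.44 to 10.8 with a pool left out. The 4 genes called between mutant and wildtype became 15 with DESeq2, 0 with the high wildtype set alone and 1 to 5 with a pool left out. With replicate number within sex as a block 1 gene (Eomes) was called; same-numbered male pools deviated together with r of -0.21, 0.01 and 0.29 and female pools with 0.21, 0.21 and 0.14, so the numbers were not taken as pairs. The log2 change of Cacna1i became 4.42 with the low set alone and ran from 1.94 to 3.15 with a pool left out, and that of Eomes became -1.69 with the high set alone and ran from -1.84 to -1.64. That of RP24-68F22.7 became 1.68 with DESeq2 and 2.51 with the low set alone, and ran from 1.53 to 2.10. Trhde lost its call under 8 of 17 alternatives, Synm under 13 and Wnt4 under 13, with no change of direction. The cause of these moves was not tested.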

Other observations

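Histone genes were not on a list and were looked at after their values were seen. Of 27 genes with a Hist symbol at 1 CPM or more, 3 were separated, all higher in the high set (where 0.415% of all genes were): Hist1h4c, Hist1h3c and Hist1h1e, which encode core histones and a linker histone. Hist1h3c was at 4.31, 5.12 and 5.29 CPM in the high pools (male 4, male 6, female 6) and at 2.23, 3.03 and 3.81 CPM in the low pools (male 5, female 4, female 5). Over the 27 genes 19 had a positive and 8 a negative log2 ratio, with a median of 0.07. Replication-dependent histone genes are near-identical copies of each other, so their counts are uncertain. Outside the lens list, Nid1, a basement membrane glycoprotein gene, was at 19.7, 13.7 and 15.1 CPM in the high pools and at 32.2, 23.1 and 23.4 CPM in the low pools. Hbb-y, an embryonic globin, averaged 19.0 ± 6.82 CPM in the high set and 25.3 ± 12.5 CPM in the low set (SD, n = 3 each), and the sets overlapped.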
